A study of Mus musculus with 4 samples.

Results

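R-spondins and their receptors were followed as a group of 8 genes among the 27998 genes listed for mouse mammary epithelium: the ligands Rspo1, Rspo2 and Rspo3, the receptors Lgr4, Lgr5 and Lgr6, and the membrane E3 ubiquitin ligases Znrf3 and Rnf43. The genes were taken by symbol from the count tables. Rspo1 was chosen on its higher level in luminal progenitor cells of diestrus in these same libraries, so its levels are given as a description, with no test. The remaining R-spondin, Rspo4, is given beside them.

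R-spondins are secreted proteins that amplify Wnt signalling. ZNRF3 and RNF43 mark Frizzled receptors for removal from the cell surface, and an R-spondin that binds an LGR receptor together with one of these ligases takes the ligase off the membrane, so that more Frizzled remains to receive Wnt. In the mammary gland, R-spondin 1 is known as a factor that cooperates with Wnt4 in stem cell renewal, and Lgr5 has been used as a marker of subsets of basal cells.

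The cells came from female FVB/NJ mice, with no treatment and no transgene named in the labels. The puberty library was made from glands at 5 weeks of age, and the estrus and diestrus libraries from adult glands at 10 weeks, staged by the phase of the ovarian cycle. Epithelial cells had been sorted as lineage-negative (CD31-, CD45- and Ter119-) CD24+ cells and captured on a droplet platform (10x Genomics Chromium), which counts the 3' ends of transcripts. The study gave a pair of mice for each adult phase, whose cells cannot be told apart in the tables. Each stage had 1 library, so a difference between stages cannot be told apart from a difference between libraries. The libraries held 5428 barcodes in puberty, 2729 in estrus and 2439 in diestrus, with 10962454 to 25365324 counts and a median of 3236 to 4103 counts per cell. A second puberty table shared 5387 barcodes with the first, and the totals of the shared cells had a Pearson correlation of 0.997. It was treated as the same cells and was not used as a replicate. Between libraries of different stages, 13 to 24 barcodes were shared.

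Cells were classed as basal-like, luminal progenitor-like (LP), intermediate luminal (Lum Int, between the luminal classes) or mature luminal-like (ML), below called basal, LP, Lum Int and ML. The classes were set from 8 marker genes a lineage and signatures of up to 100 genes that held none of the 8 members. For puberty, estrus and diestrus, in this order, the classes held 1139, 1310 and 1057 basal cells, 1772, 470 and 565 LP cells, 225, 110 and 94 Lum Int cells, and 2183, 788 and 680 ML cells. A count of Krt8, Krt18 or Krt14, keratins of the luminal and basal layers, was found in 98.2% to 99.2% of the barcodes of a library. The LP markers were lower in diestrus: their summed level in LP cells was 37784 CPM (counts per 1000000 counts) in puberty, 31700 in estrus and 17383 in diestrus, and each of the 8 had counts in all 3 libraries. The part of this difference in the results on LP cells was not tested.

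The ligands were nearly silent outside diestrus. Over all barcodes Rspo1 gave 14 counts in puberty, 4 in estrus and 556 in diestrus. Rspo2, Rspo3 and Rspo4 gave 1 count each, all in the puberty library and none in estrus or diestrus. Over the 3 libraries, with 48196371 counts in 10596 barcodes, a total of 0 would have allowed a level of up to 0.0622 CPM (3 counts). Expression of Rspo2, Rspo3 and Rspo4 was therefore not detectable in these epithelial cells at this depth beyond single counts, and these cells had been sorted to leave out blood and endothelial cells.

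Rspo1 (ENSMUSG00000028871) lies on chromosome 4, positions 124986430 to 125009099, plus strand, of GRCm38 in the GENCODE M21 annotation. In LP cells it was measured with 12 counts in puberty, 3 in estrus and 486 in diestrus. Scaled to library size by TMM (trimmed mean of M values, a size factor per class and library), its level was 2.0 CPM in puberty (exact Poisson 95% interval 1.03 to 3.49), 1.72 CPM in estrus (0.354 to 5.01) and 176 CPM in diestrus (161 to 193). All intervals in the text are 95% intervals and cover counting error only. The diestrus interval stood far above both others, which overlapped each other. The ratio of diestrus to estrus was 103, with an exact conditional interval of 34.9 to 499.5 that is wide because estrus gave 3 counts, and the log2 ratio with 1 CPM added to each level was 6.03. Between these libraries 13.7% of the 10133 genes with at least 10 counts in LP cells had a log2 ratio of at least 1 in size. Since this contrast chose the gene, nothing is read from its place among them.

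The same was seen in the share of cells with a count. In diestrus 169 of 565 LP cells held Rspo1, or 29.9% (exact binomial interval 26.2% to 33.9%), against 3 of 470 in estrus, or 0.638% (0.132% to 1.85%), and 7 of 1772 in puberty, or 0.395% (0.159% to 0.812%). When every cell was thinned to 2000 counts and shallower cells were left out, the shares were 20.3% of 497 cells in diestrus, 0.257% of 389 in estrus and 0.250% of 1598 in puberty. Among LP cells that stood out by the 8 LP markers, 29.2% of 504 in diestrus held Rspo1, against 0.676% of 444 in estrus and 0.381% of 1312 in puberty. This limit kept most LP cells of each library, 504 of 565 in diestrus and 444 of 470 in estrus, so it does not separate the lower LP markers of diestrus from its Rspo1 level.

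Across the classes of diestrus, the order of Rspo1 levels was LP, Lum Int, ML and basal. Lum Int cells reached 72.1 CPM (53.0 to 95.9) with a count in 22 of 94 cells, or 23.4%. After thinning to 2000 counts this share was 4.40% (1.21% to 10.9%), and these cells were the deepest class of the library, with a median of 7084 counts. ML cells had 1.72 CPM (0.632 to 3.75), with a count in 4 of 680 cells, and basal cells 0.792 CPM (0.216 to 2.03), with a count in 4 of 1057 cells. The intervals of LP and Lum Int did not overlap each other or those of the other classes, while those of ML and basal overlapped. The shares in ML and basal cells were 0.588% and 0.378%. Whether these counts came from free RNA, misplaced cells or a low level in these classes was not tested. The median depths of LP, ML and basal cells in this library were 4052, 4336.5 and 3410 counts. Of the 36 cells mixed between basal and luminal, 3 held Rspo1. In puberty and estrus, no class had a level above 2.0 CPM, and the intervals of all classes with a count overlapped. Basal and ML cells of puberty had 0 counts, with upper bounds of 0.906 and 0.339 CPM, below the LP interval of 1.03 to 3.49 CPM.

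**Figure D1:**
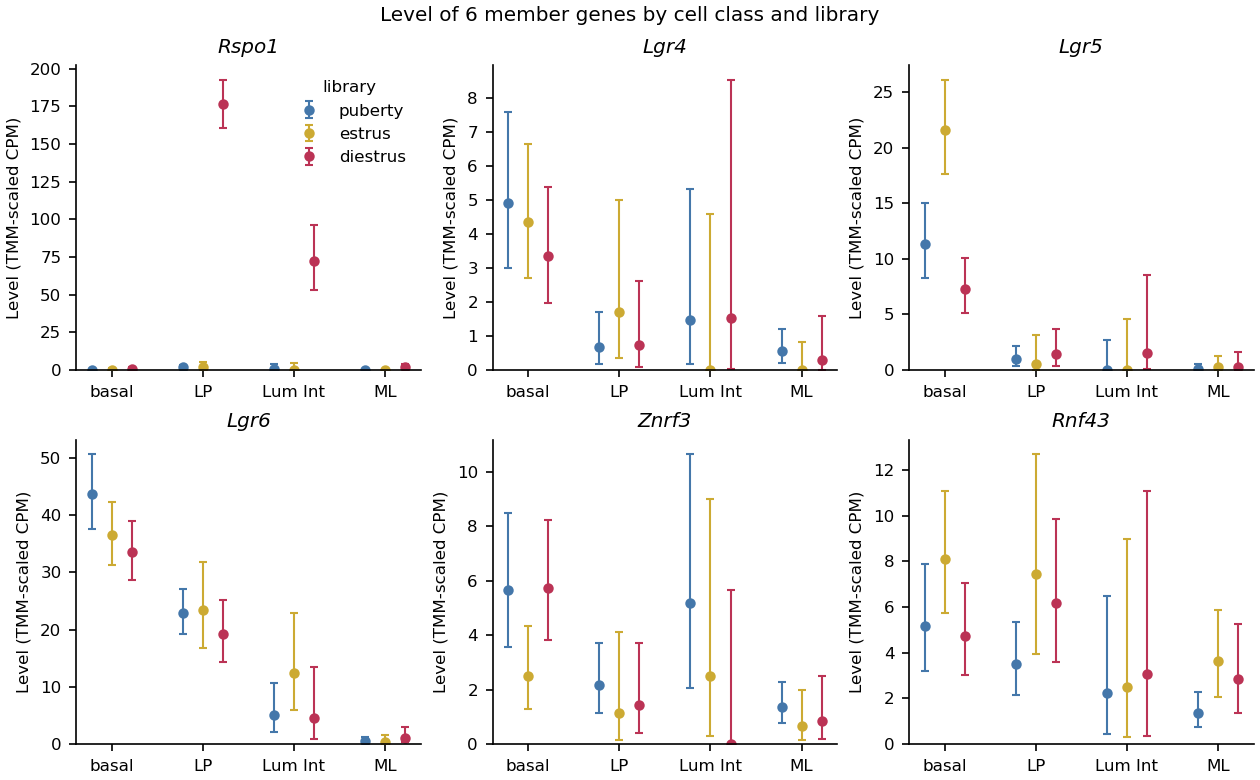
Levels of 6 members in TMM-scaled CPM (linear vertical axes, a different range for each gene) by cell class (horizontal axis) and library (colour); points are the level of a class in a library and bars are exact Poisson 95% intervals. Rspo1 stood at 176 CPM in LP and 72.1 CPM in Lum Int cells of diestrus and at or below 2.0 CPM elsewhere, while Lgr5 had its higher levels in basal cells and Lgr6 in basal and LP cells.

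Within the luminal cells of diestrus, each cell was placed on an axis on which the median ML marker cell is 0 and the median LP marker cell is 1. No Rspo1 count was found in the 322 cells at or below 0, which allows a share of cells with a count of up to 1.14% (upper exact bound). With a median of 3682.5 counts in these cells, this bound limits cells in which Rspo1 would be counted, not cells that hold the transcript. Between 0 and 1/3, 1.12% of 358 cells held Rspo1. The share was 23.4% of 94 cells between 1/3 and 2/3, 40.0% (34.3% to 45.9%) of 285 cells between 2/3 and 1, and 19.6% (15.2% to 24.8%) of 280 cells beyond 1. Rspo1 was thus found more often just before the LP median than beyond it, and the level followed the same order, with 213 CPM, not TMM-scaled, between 2/3 and 1 and 122 beyond 1. Depth also differed along the axis, with a median of 4945 counts per cell between 2/3 and 1 and 3150 beyond. After thinning to 2000 counts the shares were 25.5% and 14.2%.

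**Figure D2:**
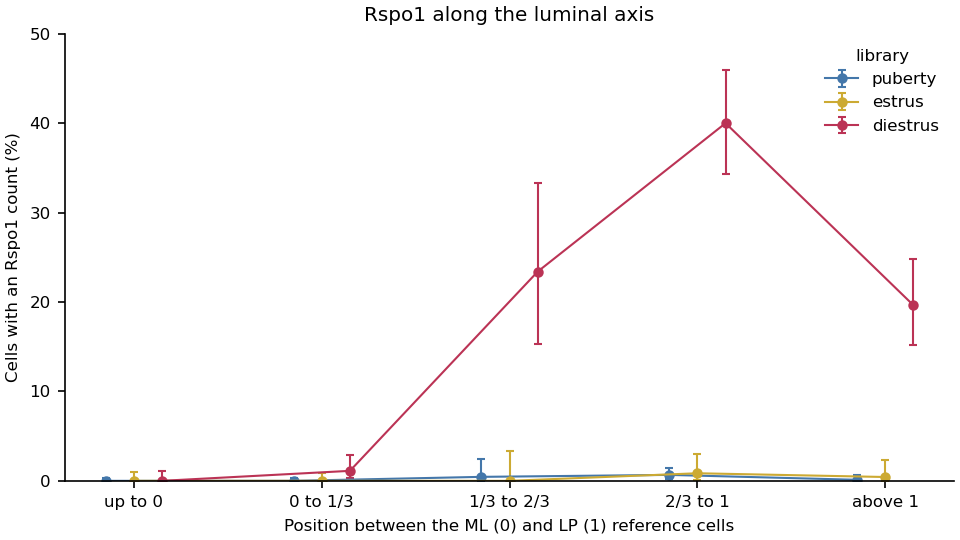
Share of luminal cells with an Rspo1 count (vertical axis, %) by position between ML and LP reference cells (horizontal axis, 5 intervals) in each library (colour); bars are exact binomial 95% intervals. The diestrus library rose from 1.12% between 0 and 1/3 to 40.0% between 2/3 and 1 and was at 19.6% beyond 1, whereas puberty and estrus stayed below 1%.

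The counts per cell were uneven. Of the 169 diestrus LP cells with Rspo1, 62 held 1 count, 38 held 2 and 26 held 3, and the highest cell held 16, with a mean of 2.88 counts per positive cell. In estrus each of the 3 positive LP cells held 1 count. In puberty the highest LP cell held 4.

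**Figure D3:**
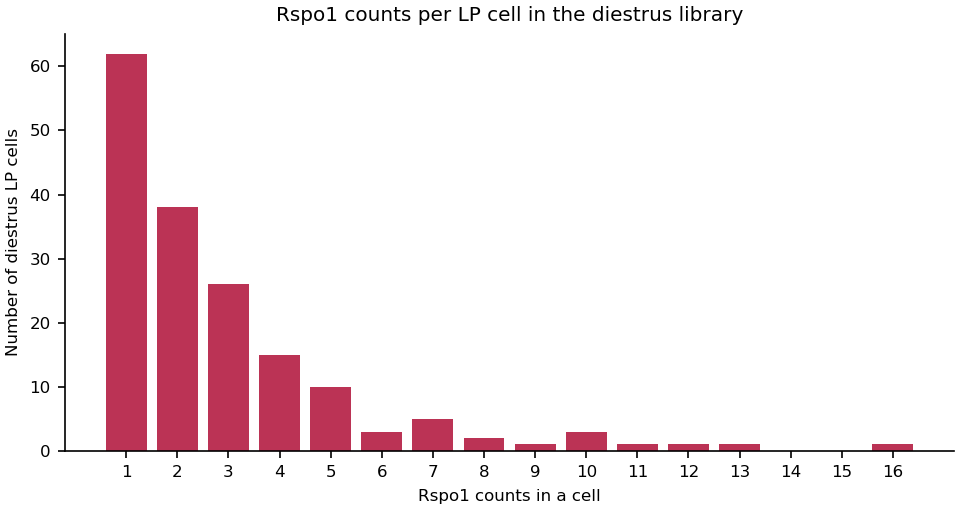
Number of diestrus LP cells (vertical axis) by the number of Rspo1 counts in the cell (horizontal axis); the 396 LP cells without a count are not drawn. The bars fall from 62 cells with 1 count to 38 with 2 and 26 with 3, and the tail reaches 1 cell with 16.

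The diestrus LP cells with and without Rspo1 were compared in their other transcripts, as a description, since the cells were split by the measured gene and share 1 library. The cells with Rspo1 were deeper, with a median of 6277 counts against 3391.5, so each level is scaled to the total counts (CPM, not TMM-scaled). The 8 LP markers summed to 10283 CPM in cells with Rspo1 and 22688 in cells without, and 6 of the 8 were lower. Of these, Trf, which encodes the iron carrier transferrin, stood at 3810 CPM against 13666, and the milk casein gene Csn3 at 1122 against 3973. The LP marker Wfdc18, a whey acidic protein family gene, went the other way, at 3924 against 2819. These 3 markers were named after their values were seen. All 10 cell cycle genes were higher in the cells with Rspo1, where they summed to 873 CPM against 374. Cells with counts of at least 3 of these 10 genes, here called cycling, made up 29.0% (22.3% to 36.5%) of LP cells with Rspo1 and 6.31% (4.13% to 9.18%) of those without. The deeper sequencing of the cells with Rspo1 moved with these shares, and its part was not tested. Ccnd1, which encodes the cell cycle regulator cyclin D1, stood at 433 CPM against 263. With cycling cells left out, the log2 ratio of diestrus to estrus in LP cells was 5.86, and 24.4% of the remaining diestrus LP cells held Rspo1.

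The 250 bases before the annotated start of Rspo1 and of Lgr6 are shown because Rspo1 differed between the stages and Lgr6 between the classes. Both are RefSeq sequences of GRCm38.p6, written 5′ to 3′ on the strand of the gene, with CG dinucleotides in capitals. Rspo1 is at chr4:124986180-124986429 on the plus strand and Lgr6 at chr1:135105277-135105526 on the minus strand.
Rspo1: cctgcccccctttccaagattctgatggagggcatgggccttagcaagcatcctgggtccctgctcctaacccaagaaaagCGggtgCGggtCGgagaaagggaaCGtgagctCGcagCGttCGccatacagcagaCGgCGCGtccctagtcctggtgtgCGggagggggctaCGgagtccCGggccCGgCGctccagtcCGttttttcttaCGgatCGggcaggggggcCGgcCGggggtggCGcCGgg
Lgr6: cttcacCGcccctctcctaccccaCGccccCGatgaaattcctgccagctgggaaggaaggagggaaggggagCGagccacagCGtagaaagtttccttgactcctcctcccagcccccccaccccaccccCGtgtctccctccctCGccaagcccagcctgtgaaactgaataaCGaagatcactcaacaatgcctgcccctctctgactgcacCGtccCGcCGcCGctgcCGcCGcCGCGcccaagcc
Rspo1 had 22 CG dinucleotides in this window, more than 85.2% of the 32851 promoter windows of the same length, whose median was 6. Lgr6 had 16, more than 74.6%. Both strands of each window were searched for TCAAAG, the core of sites bound by the TCF and LEF factors of the Wnt pathway, and for TGTTCT, a half-site of steroid receptors such as the progesterone receptor. These letters do not overlap each other. Neither was found in the windows of Rspo1, Lgr6, Lgr4 or Rspo4. Rnf43 had windows at 2 annotated starts, of which 1 held TGTTCT and none held TCAAAG, while 13.8% of all windows held TCAAAG and 16.1% held TGTTCT. Entries for Rspo2, Rspo3, Lgr5 and Znrf3 were not in the table used.

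The receptors were measured mainly in basal cells. Lgr4, Lgr5 and Lgr6 are leucine-rich repeat receptors that bind R-spondins. In GRCm38 they lie on chromosome 2 (109917647 to 110014257, plus strand), chromosome 10 (115450311 to 115587780, minus strand) and chromosome 1 (134983301 to 135105276, minus strand). A count of at least 1 of the 3 was found in 15.3%, 17.8% and 16.8% of basal cells in puberty, estrus and diestrus, in 6.21%, 8.94% and 9.20% of LP cells, and in 0.550%, 0.254% and 0.735% of ML cells. Basal cells stood above LP cells and LP cells above ML cells in each library. Basal cells were no deeper than ML cells in any library, with medians of 2541 to 3410 counts against 4152 to 4670.

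To test differences between lineages, the counts of all cells of a class were added up within each library, and the 3 libraries served as replicates with library as a block in edgeR's quasi-likelihood F test. With the block, these p-values measure how far the differences between classes vary across libraries of different stages. Of the 11147 genes tested, 22.6% were higher and 19.7% lower in basal cells than in the mean of LP and ML at an adjusted p under 0.01. Of the 8 members, 5 passed the filter on low counts (the receptors and the ligases), and 4 of these were higher in basal cells. Rspo1, Rspo2 and Rspo3 were not tested. Lgr4 and Lgr5 had 10 or more counts only in sums of basal cells and could pass the filter only through them, so the count of 4 of 5 is partly set by the filter. The same limit applies to the adjusted p-values of Lgr4 and Lgr5 for basal cells given below, which are no support apart from the filter. Znrf3 passed the filter mainly through basal cells, so its adjusted p-value for basal cells is also partly set by the filter.

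Lgr5 gave 46, 104 and 37 counts in basal cells of puberty, estrus and diestrus, or 11.3 CPM (8.27 to 15.1), 21.6 CPM (17.6 to 26.2) and 7.33 CPM (5.16 to 10.1). In LP cells it gave 6, 1 and 4 counts and in ML cells 1 in each library, so that basal cells did not overlap with either luminal class. The log2 difference between basal cells and the mean of LP and ML was 4.73 ± 0.40 (SE, 3 libraries; edgeR adjusted p = 1.02e-07). Against LP cells alone it was 3.45 ± 0.47 (adjusted p = 1.99e-05 by edgeR). A contrast of basal with LP cells alone was added after seeing the data, and in it 17.8% of genes were higher and 17.6% lower in basal cells.

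Lgr6 was found in basal cells and in LP cells. It gave 178, 176 and 169 counts in basal cells, or 43.7 CPM (37.5 to 50.7), 36.5 CPM (31.3 to 42.3) and 33.5 CPM (28.6 to 38.9) in puberty, estrus and diestrus. In LP cells it gave 137, 41 and 53 counts, or 22.8, 23.5 and 19.2 CPM, and in ML cells 6, 2 and 4 counts, or 0.552, 0.453 and 1.15 CPM. The lowest basal level lay above the highest LP level, and the lowest LP level above the highest ML level. Lum Int cells lay between LP and ML in each library, at 5.18, 12.5 and 4.60 CPM, although their intervals were wide. The log2 difference of basal cells from the mean of LP and ML was 3.31 ± 0.21 (SE; edgeR adjusted p = 4.42e-09).

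Lgr6 was also the member that separated the luminal classes. In the comparison of LP with ML, 16.6% of genes were higher and 14.6% lower in LP cells, and Lgr6 was higher in LP cells by 5.03 ± 0.33 on the log2 scale (edgeR adjusted p = 9.22e-09). The other 4 members did not pass the threshold, with edgeR adjusted p-values of 0.237 for Lgr4, 0.0247 for Lgr5, 0.371 for Znrf3 and 0.0125 for Rnf43. Between basal and LP cells the Lgr6 difference was 0.80 ± 0.20 (edgeR adjusted p = 0.00472). This last call was lost without the puberty library (adjusted p = 0.0271), without the diestrus library (0.0246), without cycling cells (0.0192) and without the library block (0.0348), all by edgeR, at log2 differences of 0.78, 0.80, 0.62 and 0.79.

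Lgr4 was sparse. It gave 20, 21 and 17 counts in basal cells of puberty, estrus and diestrus, or 4.91, 4.36 and 3.37 CPM with overlapping intervals, and between 0 and 6 counts in LP and ML cells of a library. The log2 difference of basal cells from the mean of LP and ML was 2.90 ± 0.48 (edgeR adjusted p = 0.000114). Against LP cells alone it was 2.27 ± 0.59 (edgeR adjusted p = 0.00526), and this call was lost without the puberty library (adjusted p = 0.0931), the diestrus library (0.0391) or the library block (0.0146) by edgeR, with DESeq2 (0.0126), and by edgeR when cells below 1000 genes or above 10% mitochondrial counts were left out (0.0166).

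**Figure D4:**
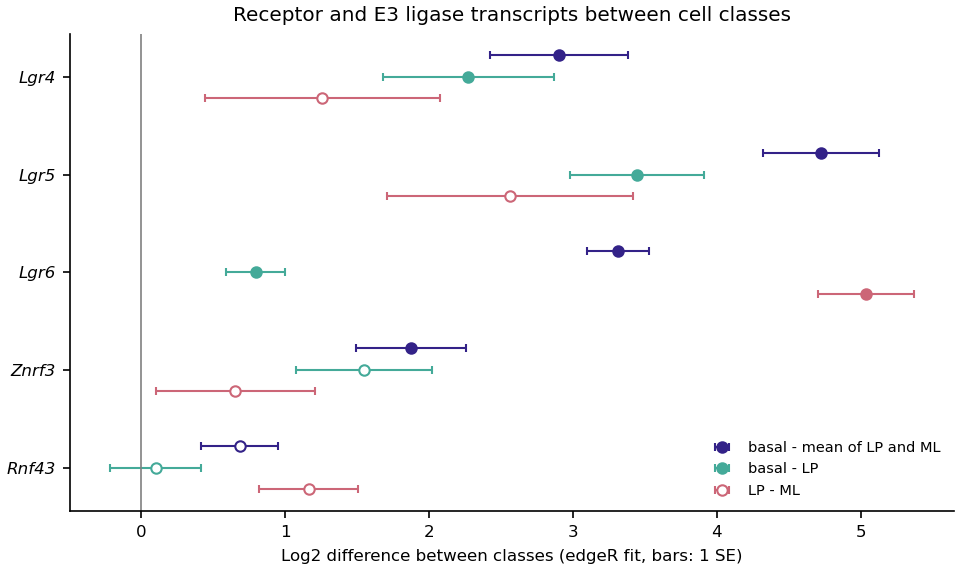
Log2 differences between cell classes (horizontal axis) for the 5 members tested, by contrast (colour); points are estimates of the edgeR fit over 3 libraries, bars are 1 SE, and filled points passed an adjusted p under 0.01. Lgr5, Lgr6, Lgr4 and Znrf3 lay above 0 and passed in basal cells against the mean of LP and ML, and Lgr6 alone of the 5 passed in LP against ML. Lgr4 and Lgr5 could pass the filter on low counts only through basal cells, and Znrf3 passed it mainly through them.

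The genes of both ligases that R-spondins act on lie on chromosome 11, Znrf3 at 5276324 to 5444847 on the minus strand and Rnf43 at 87662722 to 87735539 on the plus strand. Znrf3 gave 23, 12 and 29 counts in basal cells, or 5.65, 2.49 and 5.74 CPM in puberty, estrus and diestrus, and 0.680 to 2.17 CPM in LP and ML cells. In LP cells it gave 13, 2 and 4 counts and in ML cells 15, 3 and 3, so it passed the filter mainly through basal cells. Lum Int cells stood at 5.18 CPM (2.08 to 10.7) in puberty, near the basal level, and at 2.49 in estrus and 0 in diestrus. The Znrf3 log2 difference of basal cells from the mean of LP and ML was 1.88 ± 0.38 (edgeR adjusted p = 0.000701), which did not pass without the diestrus library (1.60, adjusted p = 0.0126). Without the puberty library Znrf3 did not pass the filter on low counts and was not tested. Against LP cells alone it was 1.55 ± 0.47 and did not pass (edgeR adjusted p = 0.0138). Rnf43 gave 5.16, 8.09 and 4.75 CPM in basal cells, 3.50, 7.44 and 6.16 CPM in LP cells and 1.38, 3.63 and 2.87 CPM in ML cells. The basal and LP levels of Rnf43 overlapped, and its difference of basal from the luminal mean, 0.68 ± 0.27, did not pass (edgeR adjusted p = 0.0434).

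Between the stages, the receptors and ligases had smaller ratios than Rspo1 in LP cells, but Rspo1 was chosen for that ratio, so nothing is read from this order. In basal cells, Lgr5 was the only 1 of the 5 measured members with a log2 ratio of at least 1 in size between diestrus and estrus, at -1.44 (fold 0.339, interval 0.227 to 0.498), where 10.1% of all genes with at least 10 counts had such a ratio. Estrus was the highest of the 3 libraries for Lgr5 and its interval did not overlap the others, whereas those of puberty and diestrus overlapped. By share, Lgr5 was found in 2.63%, 6.95% and 3.22% of basal cells of puberty, estrus and diestrus, and after thinning to 2000 counts in 1.83%, 5.05% and 1.74%. Znrf3 went the other way, at a log2 ratio of 0.95 (fold 2.31, interval 1.14 to 4.96), under the size called. Lgr6, Lgr4 and Rnf43 had ratios of -0.12, -0.30 and -0.66, and their intervals held a fold of 1.

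In LP cells, Lgr6 and Rnf43 had log2 ratios of -0.27 and -0.24 between diestrus and estrus. The intervals of the fold, 0.535 to 1.26 and 0.379 to 1.86, both held a fold of 1. In ML cells only Rnf43 had 10 counts, at -0.26, and 7.9% of genes had a ratio of at least 1 in size. Puberty against the mean of estrus and diestrus gave no member such a ratio in basal cells (background 8.9%) or in ML cells (background 4.91%). In LP cells it gave Rspo1, at -4.91, beside a background of 7.29%, and that ratio holds the same diestrus value that chose the gene.

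Basal cells with counts of at least 3 of the 10 cell cycle genes made up 8.87%, 3.89% and 16.7% of the class in puberty, estrus and diestrus. In these cycling cells Lgr5 stood at 2.78, 2.07 and 3.29 CPM, not TMM-scaled, in puberty, estrus and diestrus, against 12.9, 26.3 and 9.79 in the other basal cells. The cycling cells with Lgr5 numbered 2, 1 and 5. Lgr6 was higher in cycling cells in each library, at 59.8, 55.8 and 42.1 CPM against 39.7, 38.0 and 32.1, with a count in 25, 17 and 50 cycling cells. Znrf3 stood at 8.35, 4.13 and 8.56 CPM against 4.99, 2.55 and 4.89, and its cycling cells with a count numbered 5, 2 and 13. Without cycling cells, the basal log2 ratio of diestrus to estrus was -1.27 for Lgr5 and 0.77 for Znrf3, so both kept their direction.

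**Figure D5:**
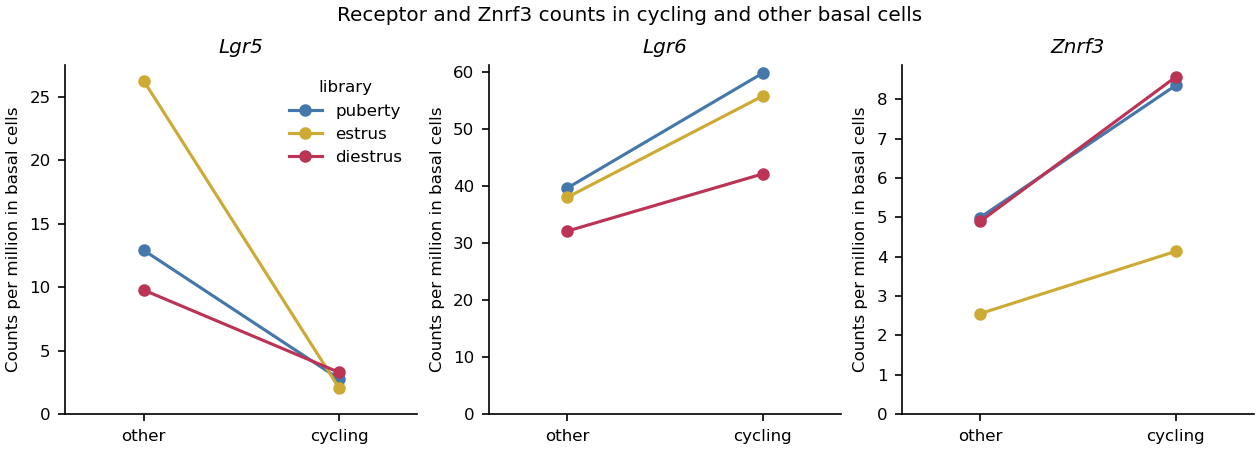
Levels in CPM of Lgr5, Lgr6 and Znrf3 (vertical axes, each from 0) in basal cells that were not or were cycling (horizontal axis) in each library (colour); each line joins the 2 values of 1 library. In all 3 libraries Lgr5 was lower and Lgr6 and Znrf3 were higher in cycling cells.

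Few cells held transcripts of more than 1 receptor. Over the 3506 basal cells of the 3 libraries, 155 held Lgr5 and 412 held Lgr6, and 25 held both, against 17.8 if the genes were independent within a library. After thinning the numbers were 11 and 5.2. Most of this excess lay in estrus, with 16 against 9.93, beside 4 against 3.42 in puberty and 5 against 4.47 in diestrus. After thinning these were 9 against 3.44 in estrus, 1 against 0.880 in puberty and 1 against 0.886 in diestrus. Lgr4 and Lgr5 met in 2 cells, against 2.44. Lgr4 and Lgr6 met in 11, against 6.43, and after thinning in 4, against 1.79. Lgr5 met Tspan8, a tetraspanin used with Lgr5 to divide the basal layer, in 9 cells (6.50 if independent), and Procr, a receptor used to mark basal stem cells, in 3 (3.52). Among LP cells, 17 held both Rspo1 and Lgr6, against 14.7. Lgr6 and the Wnt target Nkd1 met in 142 basal cells, against 94.8, but after thinning to equal depth in 25, against 25.5. Lgr5 and Nkd1 met in 28 basal cells, against 36.9, and after thinning in 9, against 12.6. These are counts of cells with no test, and in cells this shallow an absent count does not show that a transcript was absent.

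Other Wnt receptors and coreceptors were also higher in basal cells in part. Of a list of 16 (Fzd1 to Fzd10, Lrp5, Lrp6, Ryk, Ror1, Ror2 and Ptk7), 12 were tested, 8 were higher in basal cells than in the mean of LP and ML, 4 did not pass and none was lower, beside 22.6% higher and 19.7% lower of all genes, with a median log2 difference of 1.44 beside 0.01. The smallest adjusted p-values were those of Ptk7, a planar polarity coreceptor, at 1.76 ± 0.13, Fzd7, a Frizzled receptor, at 3.11 ± 0.27, and Ryk, a Wnt coreceptor, at 1.13 ± 0.13. Between LP and ML, Fzd1 was higher in LP cells (3.20 ± 0.43), Fzd10, Ror2 and Fzd4 were lower, and 8 did not pass, beside 16.6% higher and 14.6% lower of all genes. Against LP alone, 8 of the 12 were higher in basal cells and 4 did not pass, beside 17.8% higher of all genes. Fzd2 gave 0 to 7 counts and Fzd7 6 to 12 in the LP and ML sums of a library, and both passed the filter mainly through basal cells. Ror2 gave 0 counts in LP cells of each library. Both counts of 8 are therefore partly set by the filter. Between diestrus and estrus, 2 of 16 receptors with at least 10 counts in basal cells had a log2 ratio of at least 1 in size, which is near the 10.1% of all genes. Fzd10 had 21 counts against 6 (log2 ratio 1.20, fold interval 1.30 to 10.1) and Fzd8 had 4 against 13 (-1.04, 0.0697 to 0.950). In LP cells 1 of 8 receptors did, beside 13.7% of all genes: Fzd7, with 7 counts against 12 (-1.15, 0.123 to 1.02). Puberty against the adult mean gave Fzd7, at -1.96 in basal and -1.40 in LP cells, Ror2 at 1.53 in basal cells and Fzd10 at 1.07 in ML cells.

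The Wnt target genes followed the basal lineage in part. Of a list of 12, 7 were tested, and 5 were higher and 2 lower in basal cells than in the luminal mean, beside 22.6% and 19.7% of all genes, with a median of 1.65 beside 0.01. Nkd1 and Nkd2, feedback inhibitors of Wnt signalling, were higher by 7.42 ± 0.25 and 6.11 ± 0.42, and the transcription factor gene Tcf7 by 3.85 ± 0.31. In the LP and ML sums of a library, Nkd1 gave 0 to 3 counts, Nkd2 0 to 10 and Tcf7 1 to 13. These 3 genes passed the filter on low counts mainly through basal cells, so the count of 5 higher is partly set by the filter. Against LP alone, 3 of the 7 were higher in basal cells, 2 were lower and 2 did not pass, beside 17.8% higher and 17.6% lower of all genes. The 3 higher were Nkd1, Nkd2 and Tcf7, while Cd44 (-0.05) and Myc (0.83) did not pass. Sox9 and Ccnd1 fell by 1.44 and 0.92 on the log2 scale relative to the luminal mean. The 5 that were too sparse to test included Axin2, a widely used target, with 24, 11 and 14 counts in basal cells of puberty, estrus and diestrus, and 2, 0 and 6 in LP cells. In the LP cells of diestrus, where Rspo1 was high, 4 targets had at least 10 counts. Of these, Ccnd1 had a log2 ratio to estrus of 1.09 and Myc of -1.12, and Cd44 and Sox9 had ratios under 1 in size. Of all genes, 13.7% had a ratio of at least 1 in size there. In basal cells Ccnd1 stood at 150 CPM in diestrus and 37.8 CPM in estrus, a fold of 3.97 (3.38 to 4.70), and Myc at 229.9 and 474 CPM. They were the 1 higher and 1 lower of 8 targets with at least 10 counts there, beside 10.1% of all genes. Puberty against the adult mean gave 2 targets a log2 ratio of at least 1 in size, both in ML cells, Cd44 at 1.20 and Sox9 at 1.23. In ML cells 5 targets had at least 10 counts, and 4.91% of all genes had such a ratio.

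Of 3 further genes known as markers of basal subsets or stem cells, Procr and Bcl11b, a transcription factor gene, were higher in basal cells than in the luminal mean by 3.54 ± 0.45 and 5.97 ± 0.66, and Tspan8 fell by 1.30 on the log2 scale. Procr gave 1 to 18 counts and Bcl11b 0 to 2 in the LP and ML sums of a library, so both passed the filter mainly through basal cells. Tspan8 was higher in LP than in ML cells by 5.89 ± 0.32 (edgeR adjusted p = 1.11e-09). Between diestrus and estrus, Tspan8 had a log2 ratio of -1.27 in LP cells, where 13.7% of all genes had a ratio of at least 1 in size. Puberty against the adult mean gave ratios of 1.11 for Procr and -1.33 for Tspan8 in basal cells, beside 8.9% of all genes.

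The hormone axis genes stood in ML cells. All 5 (Pgr and Esr1, the progesterone and estrogen receptors, and Tnfsf11, Wnt4 and Areg, which encode secreted factors downstream of them) were lower in LP than in ML cells, beside 14.6% of all genes, with a median log2 difference of -5.40 beside 0.04. Tnfsf11, which encodes RANKL, gave 280 counts in ML cells of diestrus, 2 in estrus and 41 in puberty, or 80.3, 0.453 and 3.77 CPM, a fold of 177 (48.6 to 1470) between diestrus and estrus. In LP cells it gave 3, 0 and 0 counts. With so few counts Tnfsf11 could not pass the filter through LP cells, so the count of 5 lower is partly set by the filter. In estrus its log2 difference of LP from ML cells was -0.54, on 2 counts in ML cells. Areg encodes the growth factor amphiregulin. Its log2 ratio of diestrus to estrus was 1.66 in ML, 1.70 in LP and 1.22 in basal cells. Its log2 ratio of puberty to the adult mean was 1.37, 1.71 and 2.53. Wnt4, the partner of R-spondin 1 named above, gave 15 counts in LP cells of diestrus and 3 in estrus (1.24, with an interval of the fold of 0.896 to 17.1). Between diestrus and estrus, 7.9%, 13.7% and 10.1% of genes in ML, LP and basal cells had a ratio of at least 1 in size. For puberty against the adult mean these shares were 4.91%, 7.29% and 8.9%.

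Genes with the pattern most like that of a member were sought over the 9 sums of basal, LP and ML cells in 3 libraries, among 9018 genes with at least 10 CPM in 1 of them, by the Pearson correlation of log2(CPM + 1). The 9 points share libraries and depth, so no p is given. The Rspo1 pattern rests on the LP sum of diestrus, the value that chose the gene. Its likeness therefore mainly ranks genes by a high level in that sum. For Rspo1 they were Prodh (r = 0.948), which encodes proline dehydrogenase, Alox12e (0.930), which encodes a lipoxygenase, and Gad1 (0.924), which encodes glutamate decarboxylase. Alox12e stood at 4.50, 0.572 and 40.2 CPM in LP cells of puberty, estrus and diestrus, Prodh at 17, 16.6 and 51.1, and Gad1 at 1.67, 2.29 and 13.0. For Lgr5 they were Ankrd10 (0.990), Dll1 (0.989) and Ext2 (0.988), of which Dll1, a Notch ligand, stood at 122, 168 and 66.7 CPM in basal cells of puberty, estrus and diestrus. For Lgr6 they were Tns3 (0.996), Plekhb1 (0.994) and Celf2 (0.993). For Znrf3 they were Apoc1 (0.970), Cdr2 (0.963) and Kdelr2 (0.962), and for Rnf43 Lsm14a (0.976), Dusp1 (0.971) and Rchy1 (0.952).

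Overlap with other genes was checked in the annotation. Rspo1 overlaps Gm12930 and Lgr5 overlaps A930009A15Rik on the opposite strand. Gm12930 had no count in any class, and A930009A15Rik had 1, in basal cells of estrus.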

How the data were processed

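Single mammary epithelial cells of FVB/NJ mice were captured on the 10x Genomics Chromium platform. Per the labels and methods, the deposited values are raw counts of molecules per gene and cell barcode, made by the authors with Cell Ranger 2.0 on the mm10 build, with no normalization. The number of pubertal cells in the labels, 5387, equals the barcodes shared by the puberty tables, and the first table was used as deposited. The members and gene lists were chosen with earlier results of these data known. Seed cells were those whose score over 8 markers exceeded both others by 1. Signatures came from genes at least 2 times higher in the seeds of every library and detected in a fraction of at least 0.1 of them. Borders between classes lay at 1/3 and 2/3 of the distance between seed medians. Barcodes holding 3 or more of the 5 genes of an immune, endothelial or fibroblast list, and more counts of that list than of keratins, were set aside (7 to 22 a library). No doublet caller was run, and cells between basal and luminal were kept apart as mixed (29 to 95 a library). Sums per class and library (12 sums) were fitted with edgeR 4.0.16 in R 4.3.3 (TMM, filterByExpr, library as a block, quasi-likelihood F test, Benjamini-Hochberg over all genes, threshold 0.01), which was tested on simulated data, and with DESeq2 1.42.0 as an alternative. Stages, with 1 library each, were compared without a test, by log2 ratios with 1 CPM added. Named list genes were up to 3 in each direction with the smallest adjusted p and those with a log2 ratio of at least 1 in size between stages. The other alternatives changed normalization, filter, block, threshold, cells, classes and depth.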

Additional observations from a re-analysis of the deposited data

Results flagged for a closer look

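The second puberty table was not used in the comparisons and held counts of 6 members above the limit that a count of 0 allows. It gave 10 counts of Rspo1, 34 of Lgr4, 32 of Lgr5, 207 of Lgr6, 35 of Znrf3 and 46 of Rnf43, against 14, 33, 55, 349, 63 and 66 in the first table over the 5387 shared barcodes. Of the 9 cells with Rspo1 in each table, 7 were the same cells.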

How the results depend on the processing

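Without the library block, 3059 genes passed for basal cells against the mean of LP and ML (4718 with it), 1928 for LP against ML (3477) and 2479 for basal against LP (3944). With 5 CPM added in place of 1, the number of genes with a log2 ratio of at least 1 in size was 519 in place of 1185 in basal cells and 634 in place of 1384 in LP cells and 356 in place of 855 in ML cells for diestrus against estrus, and 296, 245 and 219 in place of 1092, 826 and 583 for puberty against adult. The log2 ratio of Rspo1 in LP cells was then 4.75, and 5.86 to 6.20 under the other alternatives. Its share in diestrus LP cells was 20.3% after thinning, 24.4% without cycling cells and 35.8% when cells below 1000 genes or above 10% mitochondrial counts were left out. The difference of Rnf43 between basal and LP cells turned to -0.061 without the puberty library (adjusted p = 0.924 by edgeR) and was 0.33 without the diestrus library. Of 197 values of the members' lineage differences under alternatives, 178 kept their direction and their side of the threshold. With each library left out in turn, 3600 to 3948 genes passed for basal against the luminal mean, 2361 to 2769 for LP against ML and 2951 to 3250 for basal against LP. The lineage contrasts pair classes of the same library through the library block, and between stages no pairing was possible. Each stage, being 1 library of pooled cells, allowed no test between stages, and with 3 or fewer counts of a member in many sums, differences among them were not detectable at this depth.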
